A study of Danio rerio with 12 samples.

Results

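The promoters of 9 transcription factor genes of blood stem cell emergence were examined in whole zebrafish embryos mutant for the gene of the histone chaperone Supt16h. The genes were listed by name, as runx1, cbfb, gata2a, gata2b, tal1, lmo2, myb, ikzf1, meis1b and etv6. Of these 10, the first 9 had a start-site window in the table, 1 distinct window each, among 15674 windows in all, and etv6 was not analysed here. The data are ATAC-seq profiles, in which a transposase inserts sequencing adapters into open chromatin, of deyolked and dissociated embryos at 32 hours post fertilization. Homozygous supt16h mutants (supt16h-/-) were compared with wildtype siblings (strain WT), in 3 biological replicates per group with 2 technical repeats each, 12 libraries of 50000 cells. The labels used here name no supt16h allele and no transgene. Each library holds cells from dissociated whole embryos, so no value belongs to blood cells alone.

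Blood stem cells arise in the embryo from the floor of the dorsal aorta, where specialised endothelial cells turn into blood cells. Runx1 is needed for that step, and it binds DNA together with its partner Cbfb. Gata2, Tal1 and Lmo2 act earlier in endothelium that can form blood and work in shared complexes on DNA, while Myb maintains stem cells once they have formed. Supt16h is the large subunit of FACT, which removes and replaces histones as polymerases pass.

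Each value below is the normalized log2 signal in a window of 4000 bp centred on the annotated start site (GRCz10), as deposited by the authors. Repeated entries of the same window, which differed by up to 0.219 in a library, were averaged. All windows have the same length, so levels of different genes do not differ through window length. Other differences between loci that can affect the signal were not examined. The deposited scale appears to shrink weak signals, so differences on it may understate the change. No read counts are given, so the depth behind the values is unknown. The median over tested windows lay between 7.351 and 7.393 in mutant libraries and between 7.394 and 7.429 in sibling libraries. Every mutant library thus had a slightly lower median than every sibling library. A value per replicate is the mean of its technical repeats, a group is given as mean ± SD (n = 3), and a difference is mutant minus wildtype with its standard error (SE) from limma. Adjusted p-values are Benjamini-Hochberg values over all 15431 windows with a mean log2 signal of at least 4, which included all 9 promoters.

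No promoter of the group differed between mutants and siblings beyond the threshold of an adjusted p of 0.05 in limma. The differences ran from -0.17 at tal1 to 0.16 at meis1b, 7 of them negative and 2 positive, and the adjusted p from 0.204 to 0.92. Of the 9, 0 had an unadjusted limma p under 0.05, where 24.7% of all tested windows did, and the lowest were 0.0509 at cbfb and 0.0587 at tal1. In the limma fit blocked by replicate number, 3 of the 9 had an unadjusted p under 0.05, 0.0105 at meis1b, 0.0191 at cbfb and 0.024 at tal1, where 36.4% of all tested windows did, and 1, meis1b, was called. Over all tested windows 11.6% were called, 8.02% as higher in the mutants and 3.58% as lower. After cyclic loess normalization, which evens out trends with signal level, these shares were 6.56% and 4.57%, and 14.0% and 9.47% in the fit blocked by replicate number. Without the block, the 95% intervals of the 9 promoters together spanned 0.791-fold to 1.28-fold on the deposited scale, and all 9 held no change. Since that scale may understate changes, these folds do not bound the change in accessibility itself. With it they spanned 0.808-fold to 1.21-fold, and 6 of the 9 held no change. For scale, the called windows of the table had a median absolute difference of 0.34, and the smallest was 0.22.

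**Figure D1:**
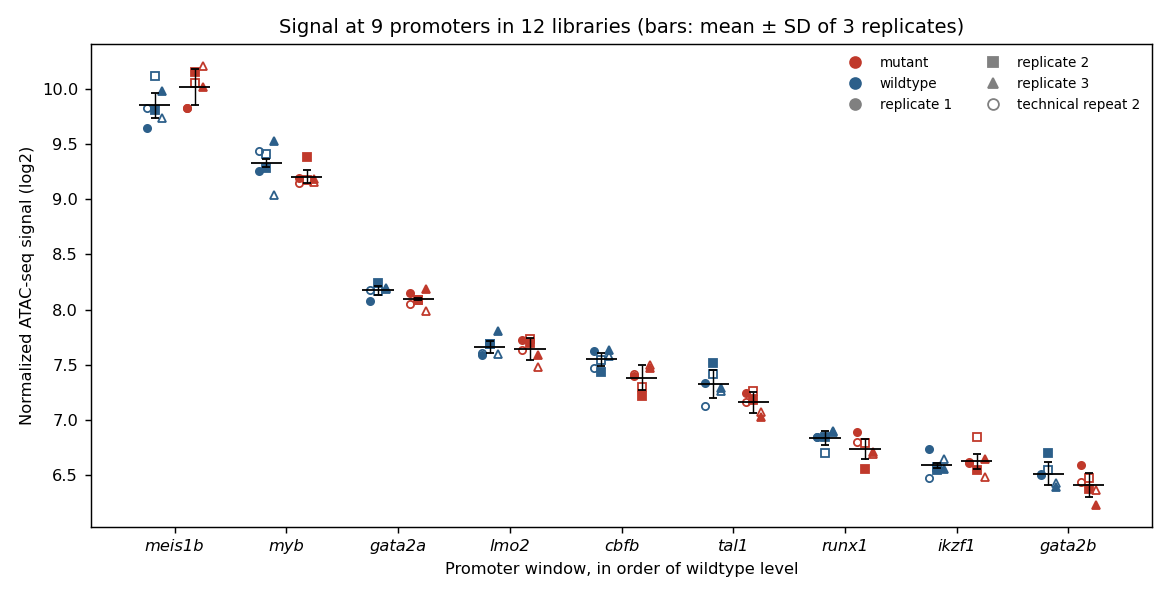
Normalized ATAC-seq signal (log2, y axis) at the 9 promoter windows (x axis, ordered by wildtype level) in 12 libraries; point shape gives the biological replicate, open points technical repeat 2, and bars the mean ± SD of 3 replicates. Levels run from 6.52 at gata2b to 9.85 at meis1b in wildtype siblings, and at each gene the libraries of the groups overlap, whereas 9.32% of all tested windows had libraries that did not.

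The 9 promoters covered a wide range of signal levels. In wildtype siblings meis1b was highest at 9.85 ± 0.11, above 96.8% of tested windows, and myb followed at 9.33 ± 0.04, above 91.9%. gata2a stood at 8.18 ± 0.04, and lmo2 and cbfb, whose replicates overlapped, at 7.66 ± 0.06 and 7.55 ± 0.06. tal1 had a level of 7.33 ± 0.13 and runx1 of 6.84 ± 0.06, each apart from its neighbours in this order. The lowest were ikzf1 and gata2b at 6.59 ± 0.03 and 6.52 ± 0.10, which overlapped, above 31.2% and 29.7% of tested windows. The median tested window had a wildtype level of 7.40, and 4 of the 9 promoters lay below it.

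runx1 encodes the factor that endothelium needs to produce blood stem cells. Its window, on an unplaced contig (5866 to 9866, plus strand), gave 6.85, 6.78 and 6.90 in wildtype replicates 1, 2 and 3 and 6.85, 6.68 and 6.70 in mutant replicates 1, 2 and 3. Mutant replicate 1 lay at the wildtype level and the other two below every sibling. The difference was -0.10 ± 0.08 (SE, 95% interval -0.26 to 0.06, limma adjusted p = 0.458). Within same-numbered pairs, which deviate together across the table, it was close to 0 in pair 1 (-0.0039) and -0.10 and -0.20 in pairs 2 and 3. It was -0.05 after cyclic loess normalization, and leaving out single replicates gave -0.15 to -0.07.

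cbfb encodes the subunit that binds Runx proteins and strengthens their hold on DNA. Its window (chromosome 18, 23003047 to 23007047, plus strand) had replicate values of 7.55, 7.49 and 7.61 in siblings and 7.41, 7.26 and 7.49 in mutants. All 3 mutant replicates lay below all 3 siblings, while single libraries overlapped. The difference of -0.17 ± 0.08 (SE, 95% interval -0.33 to 0.00074) had the lowest limma adjusted p of the group, 0.204. With the replicate block the limma adjusted p was 0.0707 and the 95% interval -0.30 to -0.03. Without mutant replicate 2, the lowest of the mutants, the difference was -0.10 (limma adjusted p = 0.532). It was the only one of the 9 whose group difference exceeded the gap between technical repeats in all 6 replicates (0.0203 to 0.16).

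gata2a and gata2b are duplicates of the single GATA2 gene of mammals, and in zebrafish gata2b is the copy known for hemogenic endothelium. gata2a (chromosome 11, 3839147 to 3843147, minus strand) had the narrowest spread of the group in mutants, at 8.10, 8.09 and 8.09, and siblings stood at 8.13, 8.21 and 8.19. All mutants thus lay below all siblings, but by little, with a difference of -0.08 ± 0.07 (SE, 95% interval -0.24 to 0.07, limma adjusted p = 0.531). gata2b (chromosome 6, 40794532 to 40798532, plus strand) gave 6.51, 6.62 and 6.42 in siblings and 6.52, 6.42 and 6.30 in mutants. Its groups overlapped, and the difference was -0.10 ± 0.08 (SE, 95% interval -0.27 to 0.07, limma adjusted p = 0.484), or -0.05 with cyclic loess. Leaving out single replicates of gata2b gave -0.15 (without mutant replicate 1 or wildtype replicate 3) to -0.05 (without mutant replicate 3 or wildtype replicate 2). The copies differed far more in level, by 1.66 in siblings, than either did between groups.

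tal1 encodes a helix-loop-helix factor needed for all blood lineages. Its window (chromosome 22, 16507315 to 16511315, plus strand) had values of 7.23, 7.47 and 7.28 in siblings and 7.21, 7.22 and 7.05 in mutants. All mutants lay below all siblings, with the closest values 7.23 in a sibling and 7.22 in a mutant replicate of another number. The difference was -0.17 ± 0.08 (SE, 95% interval -0.34 to 0.01, limma adjusted p = 0.223). With the replicate block the 95% interval was -0.31 to -0.02 and the limma adjusted p 0.083. It was -0.10 without wildtype replicate 2, the highest of the siblings, where the limma adjusted p was 0.593.

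lmo2 encodes a LIM-only protein that bridges Tal1 and GATA factors without binding DNA itself. Its window (chromosome 18, 38305972 to 38309972, plus strand) gave 7.60, 7.69 and 7.70 in siblings and 7.68, 7.72 and 7.53 in mutants. The groups overlapped fully, with a difference of -0.02 ± 0.08 (SE, 95% interval -0.18 to 0.14, limma adjusted p = 0.92). The sign turned to 0.04 without mutant replicate 3 and to 0.01 with library medians set equal. Of 1832 windows of similar level (mean log2 within 0.25), the median difference was also -0.02.

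myb encodes the factor that marks and maintains stem cells after they form. Its window (chromosome 23, 31886892 to 31890892, plus strand) stood at 9.35, 9.35 and 9.28 in siblings and 9.17, 9.28 and 9.17 in mutants. These values are means of 2 deposited entries of that window. All 3 mutant replicates lay below all siblings, with 9.28 in both groups at the closest. As deposited, the difference was -0.12 ± 0.08 (SE, 95% interval -0.28 to 0.04, limma adjusted p = 0.351). After cyclic loess normalization it was -0.24 ± 0.07 (SE, 95% interval -0.39 to -0.10) and was called, with an adjusted p of 0.0307, and of 0.005 with the replicate block as well, where 9.54% of all tested windows were called lower. Quantile normalization also gave a call (-0.24, limma adjusted p = 0.0303), with 5.0% of all tested windows called lower.

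Windows of similar signal level were set beside myb. Among 1073 windows within 0.25 of the level of myb, 21.7% were called higher and 1.3% lower, and the median difference was 0.10. Of these windows 8.11% had a lower difference than myb, the lowest such share among the 9 promoters. At the others this share ran from 17.4% at cbfb to 77.1% at ikzf1. The technical repeats of wildtype replicate 3 gave 9.53 and 9.04 at this window, a gap of 0.488, the widest of any replicate at the 9 promoters. With the first technical repeats alone the difference was -0.10 and with the second -0.14.

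ikzf1 encodes Ikaros, a zinc finger factor of lymphoid cells and their progenitors. Its window (chromosome 13, 15861480 to 15865480, minus strand) gave 6.61, 6.56 and 6.60 in siblings and 6.62, 6.70 and 6.57 in mutants. The groups overlapped, with a difference of 0.04 ± 0.07 (SE, 95% interval -0.11 to 0.19, limma adjusted p = 0.803).

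meis1b encodes a homeodomain factor that acts with Hox and Pbx proteins in stem cells and is also active in neural and other tissues of the embryo. Its window (chromosome 13, 5438724 to 5442724, minus strand) had values of 9.73, 9.96 and 9.86 in siblings and 9.82, 10.10 and 10.11 in mutants. The groups overlapped, yet in every same-numbered pair the mutant was higher, by 0.09, 0.14 and 0.25. The difference of 0.16 ± 0.09 (SE, 95% interval -0.03 to 0.35) was not called in limma (adjusted p = 0.294) but was with the replicate block (adjusted p = 0.0462, 95% interval 0.04 to 0.28) and without mutant replicate 1 (0.26, adjusted p = 0.0445). After cyclic loess normalization the sign turned, to -0.026 (adjusted p = 0.875, and 0.797 with the replicate block). Of 466 windows of similar level 31.3% were called higher, and their median difference was 0.14, close to that of meis1b.

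**Figure D2:**
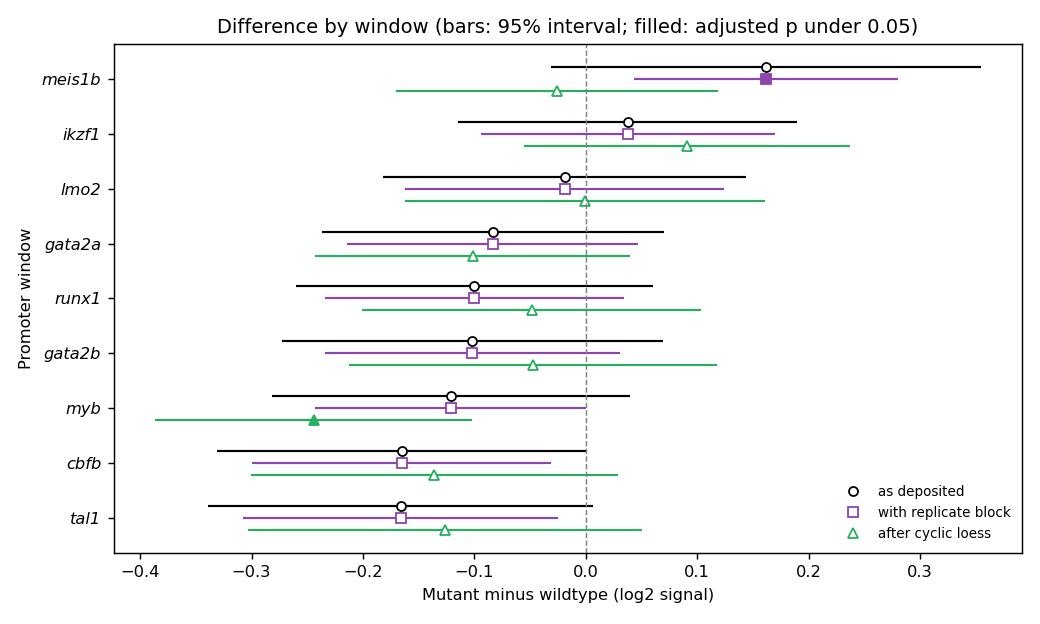
Mutant minus wildtype difference in log2 signal (x axis) with 95% intervals for each promoter (y axis), from the deposited values, with the replicate block, and after cyclic loess normalization; filled points have an adjusted p under 0.05. meis1b is called with the block alone and lies at -0.026 after cyclic loess, and myb is called after cyclic loess at -0.24.

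Most of the 9 promoters had a lower mean in the mutants. Their median difference was -0.10, against -0.02 over all tested windows, and it was -0.048 after cyclic loess and -0.052 after quantile normalization. Windows of similar level had a median difference of -0.056 for runx1, -0.058 for gata2b, -0.042 for tal1 and -0.027 for cbfb. It was -0.018 for lmo2, 0.014 for gata2a and 0.10 for myb, and -0.057 and 0.14 for ikzf1 and meis1b. The mutant mean was the lower one at 7 of 9, where 54.7% of all windows were lower. With library medians set equal it was lower at 6 of 9, where 46.0% of all tested windows were lower. The median difference of the 9 was then -0.07, against 0.014 over all tested windows. After cyclic loess and after quantile normalization the mutant mean was lower at 8 of 9, against 51.7% and 52.9% of all tested windows. All mutant replicates lay below all siblings at 4 of 9 (gata2a, tal1, myb and cbfb), against 14.0% of all tested windows, and the mutant was lower in each same-numbered pair at 5 of 9 (these and runx1), against 28.1%. No test was made of the group as a whole, since the genes were chosen with results of these data known, and the libraries are shared by all genes. The sign of 6 promoters (runx1, gata2a, gata2b, tal1, myb and cbfb) was negative in each of the 19 alternatives run. Alternatives that change only the spread, the filter or the block leave the difference as it was, so they could not turn its sign. The others reuse the same libraries, and the differences varied in size among them. How many of all windows keep their sign in this way was not computed.

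**Figure D3:**
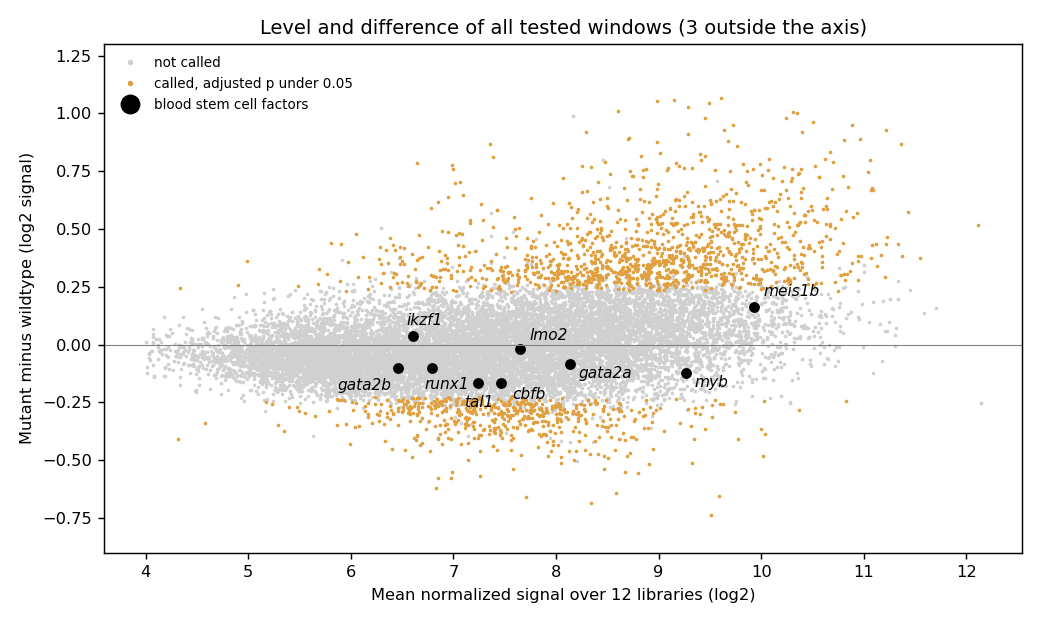
Difference in log2 signal, mutant minus wildtype (y axis), against the mean log2 signal over 12 libraries (x axis) for tested windows; orange points have a limma adjusted p under 0.05 and black points are the 9 promoters. Called windows of high signal are mostly higher in mutants, and none of the 9 promoters lies among the called windows.

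In the authors' deposited table the 9 promoters were not called either. The authors' deposited table gave cbfb and tal1 the lowest adjusted p, 0.0864 and 0.0906, and 19.0% of all its windows were under 0.05. Before adjustment, 2 of the 9 in the authors' deposited table had a p under 0.05, 0.0213 at cbfb and 0.0227 at tal1. The log2 fold changes of the authors' deposited table were larger in size than the differences above, at 0.28 for tal1, 0.26 for cbfb, 0.18 for runx1 and -0.21 for meis1b. Their sign was opposite to mutant minus wildtype of the library columns at all 9, and the directions given here follow the names of the library columns.

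The surroundings of the promoters were compared with the promoters themselves. No other annotated start-site window overlapped any of the 9. The nearest was that of hbs1l, 5195 bp from the start of myb, at 0.15 ± 0.08 (SE, limma adjusted p = 0.279). Within 50 kb, 2 neighbours were called, ier5 near tal1 and rpn1 near gata2a, named here after their values were seen. ier5, an immediate early response gene 37915 bp from tal1, rose by 0.73 ± 0.09 (SE, adjusted p = 4.2e-05) and was called with each replicate left out. rpn1, of the oligosaccharide transferase and 47448 bp from gata2a, rose by 0.28 ± 0.08 (adjusted p = 0.0339), but this call did not hold without mutant replicate 3 (adjusted p = 0.133), wildtype replicate 1 (0.15) or wildtype replicate 2 (0.132), nor with cyclic loess (0.148). The 5 neighbours of gata2b and the 3 of lmo2 lay between -0.13 and 0.09, and none was called.

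Paralogs of the 9 genes, from the same protein families but mostly known for other tissues, gave 23 tested windows, of 21 of the 27 listed genes. Of these windows 1 rose, 2 fell and 20 stayed short of the threshold, so 13.0% were called, against 11.6% over all tested windows. Their median difference was -0.05 against -0.02 over all tested windows. meis2a, a relative of meis1b, rose by 0.28 ± 0.08 (SE, limma adjusted p = 0.0306). gata4, of heart and endoderm, fell by 0.28 ± 0.08 (adjusted p = 0.0291), and lmo1 fell by 0.23 ± 0.07 (adjusted p = 0.0493). The closest relatives of runx1 did not pass, with runx3 at -0.23 ± 0.10 (adjusted p = 0.141), runx2b at -0.20 and runx2a at -0.05. meis1a, the duplicate of meis1b, lay near 0 (adjusted p = 0.975), and so did tal2, a relative of tal1 (adjusted p = 0.993). mybl2a, a relative of myb, had the largest difference of the list in size, 0.35 ± 0.11 (SE, limma adjusted p = 0.0503), with all mutant replicates above all siblings. It was not called as deposited or after cyclic loess (0.25, limma adjusted p = 0.0828), but it was with the replicate block (limma adjusted p = 5.0e-04). mybl2b lay at 0.15 (limma adjusted p = 0.232).

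Without the replicate block these calls were close to the threshold. gata4 was not called without mutant replicate 2 (limma adjusted p = 0.116), wildtype replicate 1 (0.0816) or wildtype replicate 3 (0.139). Its call held after cyclic loess normalization (-0.27, limma adjusted p = 0.0408). Those of meis2a and lmo1 were lost in every fit without a replicate except that without mutant replicate 1 (adjusted p = 0.101 and 0.0977 without mutant replicate 2, 0.123 and 0.184 without mutant replicate 3, 0.115 and 0.149, 0.0512 and 0.0984, and 0.113 and 0.137 without wildtype replicates 1, 2 and 3). meis2a was at 0.09 after cyclic loess normalization (adjusted p = 0.406), and lmo1 at -0.21 (0.0816). With the replicate block 7 of the 23 windows of the list were called, 2 higher and 5 lower. Over all tested windows the shares in that fit were 14.0% higher and 9.47% lower. The limma adjusted p with the block was 0.0017 for meis2a, 0.0043 for gata4 and 0.0148 for lmo1. After cyclic loess with the block these were 0.281, 0.005 and 0.027.

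Factors that work beside the 9 genes, such as the other members of the Tal1 complex, gave 24 tested windows, of 23 of the 24 listed genes. Here 5 windows rose, 1 fell and 18 stayed short of the threshold, so 25.0% were called, against 11.6% over all tested windows. That background is not matched to the level of the list, whose median was 8.65. Of windows near the level of gata2a, 9.01% were called higher and 4.64% lower, and near myb 21.7% and 1.3%. After cyclic loess 3 of the 24 were called, all higher, where 6.56% of all tested windows were called higher. The median difference of the list was 0.06 as deposited and turned to -0.032 after cyclic loess and -0.04 after quantile normalization. ldb1b, the cofactor that links LIM-only proteins into the Tal1 complex, rose by 0.35 ± 0.08 (SE, limma adjusted p = 0.0079), while ldb1a lay at 0.16 (adjusted p = 0.197). tcf3a, an E protein that pairs with Tal1, rose by 0.29 ± 0.07 (adjusted p = 0.0156), and tcf3b had the same difference of 0.29 ± 0.10 without passing (adjusted p = 0.0571). gfi1b and gfi1ab, related transcriptional repressors, went opposite ways (0.30 and -0.25). lef1, of Wnt signalling, and foxc1a, of mesoderm and vessels, rose by 0.29 and 0.31.

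Some of these calls moved with the scaling and others held. After cyclic loess normalization ldb1b (0.28, limma adjusted p = 0.0232), gfi1b (0.32, 0.0108) and foxc1a (0.26, 0.048) kept their calls. With quantile normalization foxc1a was at 0.24 (limma adjusted p = 0.0541). tcf3a has a sibling level of 11.06, and its difference turned to -0.02 after cyclic loess normalization (limma adjusted p = 0.9), where lef1 was at 0.17 (0.124) and gfi1ab at -0.20 (0.0796). Without wildtype replicate 3 the adjusted p was 0.0563 for ldb1b and 0.0555 for gfi1b, and without wildtype replicate 2 it was 0.0614 for gfi1b. tcf3a was not called without mutant replicate 3 or wildtype replicates 1 or 2 (0.0746, 0.0766 and 0.0689). lef1, foxc1a and gfi1ab were called in the fit without mutant replicate 1 alone, and in the other 5 fits without a replicate their adjusted p lay between 0.055 and 0.146. With the replicate block the limma adjusted p was 0.0027 for lef1, 0.0023 for foxc1a, 0.0093 for gfi1ab and 4.0e-04 for tcf3a. That fit called 9 windows of the list, 7 higher and 2 lower, where 14.0% of all tested windows were called higher and 9.47% lower. After cyclic loess with the block the limma adjusted p was 0.058 for lef1 and 0.842 for tcf3a. The numbers of called windows without wildtype replicates 1, 2 and 3 were 2, 1 and 1, and 3 without mutant replicate 2 or 3.

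**Figure D4:**
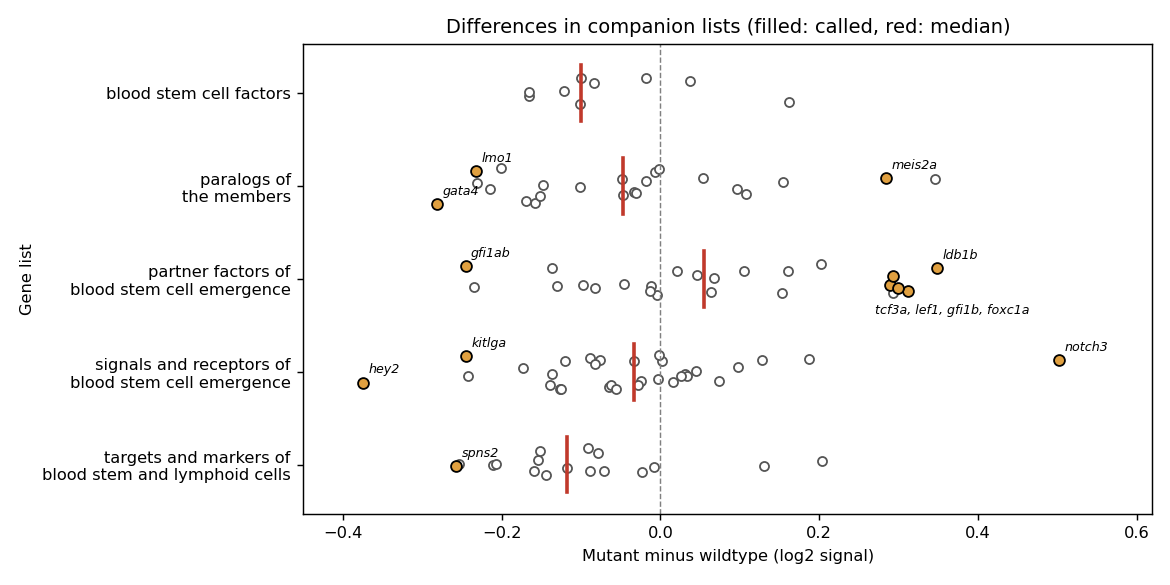
Mutant minus wildtype difference in log2 signal (x axis) for each window of the 9 blood stem cell factors and 4 companion lists (y axis); filled points have a limma adjusted p under 0.05 and red bars are list medians. The medians as deposited are -0.10, -0.05, 0.06, -0.03 and -0.12 from top to bottom, and -0.048, -0.04, -0.032, -0.053 and -0.071 after cyclic loess, where that of the partner factors has turned sign; notch3 and hey2 lie farthest from 0.

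Signals and receptors of blood stem cell emergence gave 31 windows of 31 genes, of which 1 rose, 2 fell and 28 stayed short of the threshold. The called share was 9.68%, against 11.6% over all tested windows, and the median difference of this list was -0.03. notch3, a Notch receptor gene, rose by 0.50 ± 0.08 (SE, limma adjusted p = 0.00057). hey2, a repressor of arterial cells that blood stem cells need in zebrafish, fell by 0.37 ± 0.08 (adjusted p = 0.0045). Both calls held with each replicate left out, with adjusted p of at most 0.0083 and 0.0371. kitlga, a ligand of the Kit receptor, fell by 0.24 ± 0.07 (adjusted p = 0.0381), a call kept in the fit without mutant replicate 1 and lost in the others (0.071 and 0.168 without mutant replicates 2 and 3, and 0.109, 0.0802 and 0.128 without wildtype replicates 1, 2 and 3) and after cyclic loess normalization (0.0906). At kitlga the limma adjusted p was 0.0114 with the replicate block, where 9.47% of all tested windows were called lower. After cyclic loess with the block it was 0.0382. kita, the receptor gene, lay at -0.13 (adjusted p = 0.407).

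Genes that mark blood stem and lymphoid cells, or act in or around them, gave 17 tested windows, of 15 of the 18 listed genes. Of these 1 fell, none rose and 16 stayed short of the threshold, so 5.88% were called, against 11.6% over all tested windows. The list had a median difference of -0.12, which was -0.071 after cyclic loess and -0.069 after quantile normalization. The mutant was the lower group at 15 of the 17 windows, where 54.7% of all tested windows were lower. All its replicates lay below all siblings at 7, against 14.0% of all tested windows. With library medians set equal it was lower at 13 of the 17, against 46.0% of all tested windows. After cyclic loess and after quantile normalization it was lower at 14 of the 17, against 51.7% and 52.9%. spns2 enters the counts of this list with 2 overlapping windows that cover nearly the same stretch, so these are not independent. spns2, which exports a lipid signal from cells, fell by 0.26 ± 0.08 at the called window (SE, limma adjusted p = 0.0484) and was at -0.25 ± 0.08 at an overlapping one (adjusted p = 0.0505). rag1, of lymphocyte receptor rearrangement, lay at -0.21 ± 0.08 (adjusted p = 0.0947), il7r at -0.16, itga2b at -0.08 and lck at -0.09, none passing. The called spns2 window held its call without wildtype replicate 1 and lost it without wildtype replicates 2 or 3 (0.239 and 0.127) or mutant replicates 1, 2 or 3 (0.0556, 0.134 and 0.0839). Both spns2 windows were called after cyclic loess normalization (-0.29 at each, limma adjusted p = 0.0227 and 0.023). They were also called with the replicate block (limma adjusted p = 0.0128 and 0.0137), where 5 windows of the list were called, 1 higher and 4 lower. In that fit 14.0% of all tested windows were called higher and 9.47% lower.

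Marker promoters of the tissues that hold these cells were read beside the 9 genes. Over all tested windows 54.7% were lower in the mutants and 11.6% were called, against 41.7% called of the neural marker windows. The share lower was 46.0% with library medians set equal, a setting in which the markers were not counted here. Endothelial markers were lower in the mutants at 10 of 11 windows, with mean log2 levels of 6.81 to 6.90 over mutant replicates and 6.90 to 6.99 over siblings, and 1, cdh5, fell (-0.31, limma adjusted p = 0.0151, 0.0993 without wildtype replicate 3, 0.0536 with cyclic loess). Myeloid markers were lower at 7 of 10 windows (5.98 to 6.03 against 6.05 to 6.09) and primitive erythrocyte markers at 8 of 10 (6.14 to 6.35 against 6.27 to 6.35), with none called. Skeletal muscle markers were lower at 3 of 11 windows (6.68 to 6.96 against 6.68 to 6.73) and neural markers at 8 of 12 (8.18 to 8.25 against 8.24 to 8.35), the last with 2 called higher and 3 lower. Endothelial, erythrocyte and myeloid markers had low median levels of 6.65, 6.29 and 5.67, with median differences of -0.042, -0.080 and -0.076. Windows near the levels of runx1, ikzf1 and gata2b had median differences of -0.056, -0.057 and -0.058. The shares over all tested windows are not matched to these low levels. No marker window stood at 0 in any library, the lowest value being 4.40. Fewer cells of a type and a less open promoter in each cell cannot be told apart in whole embryos, and the part of these markers in the values of the 9 genes was not tested.

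Patterns over the 6 replicates were compared between runx1 or gata2b and 97 other genes of the group and its companion lists, by the root mean square difference of deviations from each gene's own mean. Closest to runx1 were lck, a kinase of T cells, runx2a, of skeleton, and mpl, the thrombopoietin receptor, at 0.0444, 0.049 and 0.0591, where the median over the genes was 0.114. Closest to gata2b were gata1a, of red cells, dlc, a Notch ligand, and kitlgb, at 0.0401, 0.0449 and 0.0495, with a median of 0.131. Their differences between groups, -0.03 to -0.14, did not pass. The measure is not scaled to the size of the deviations, so windows that vary little can rank close. Mean levels were low at lck (5.46), mpl (5.45), gata1a (5.40) and kitlgb (5.85), while runx2a and dlc stood at 6.80 and 9.89. The median gap between technical repeats was 0.056 at runx1 and 0.118 at gata2b, so these distances are no larger than, or close to, technical variation.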

How the data were processed

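ATAC-seq libraries of 6 mutant and 6 wildtype samples were analysed. Per the submitters' processing notes, CASAVA 1.8, FastQC 0.11.2, HOMER 4.9 and the build GRCz10 were used. For the aligner, read filters and any Tn5 shift, the sources used here give nothing. The authors deposited normalized log2 values per start-site window and library, with no transformation named, and a log2 fold change, p-value and adjusted p-value per window, with no test named. Library columns name group, biological and technical number, but not single samples. No culture or clutch is stated for the replicates, although the wildtype samples are titled siblings. The p-values without the replicate block measure the spread between these samples, including what same-numbered replicates share.

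The 16555 entries were collapsed to 15674 windows, unnamed entries were named by RefSeq accession (548 of 567), technical pairs were averaged, and windows with a mean log2 value of at least 4 were fitted with limma 3.58.1 in R 4.3.3 (trend and robust options), with an adjusted p threshold of 0.05. The fit was checked on simulated data with changes larger than any difference at the 9 promoters. Those data held no deviations shared by same-numbered replicates, so the check does not bear on differences as small as those of the 9 promoters. Same-numbered replicates of the groups deviated together from their group means (r across windows = 0.461, 0.513 and 0.534). For other numbers r was -0.328 to -0.173, but centring on group means forces negative values there once same-numbered r is positive. Differences, intervals and adjusted p are from the fit without the replicate block unless the block is named, so they leave this pairing out. Fits with the block are given for the whole table, the 9 promoters and some companion windows. The 9 genes and the companion lists were chosen with earlier results of these data known. Each window of the 9 genes is named, and of each companion list the called windows, at most 6, or else the 2 with the lowest adjusted p; other list genes are named for their relation to the 9, after their values were seen. The neighbours, cdh5 and mybl2a were also named after their values were seen. Figures were drawn with matplotlib 3.10.9.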

Additional observations from a re-analysis of the deposited data

Results flagged for a closer look

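At the runx1 window, the second technical repeat of wildtype replicate 2 stood at 6.70, apart from the other 5 wildtype libraries at 6.85 to 6.90. Without that library the difference at runx1 was -0.12 (limma adjusted p = 0.325). At the myb window, the first technical repeat of mutant replicate 2 stood at 9.38, apart from the other mutant libraries at 9.15 to 9.20. Without it the difference at myb was -0.16 (limma adjusted p = 0.248). These were the 2 of 18 groups of 6 libraries in which a library stood apart by Dixon's criterion. Chance alone sets apart about 5% of groups of 6 independent values. The libraries here are technical pairs and are shared by all genes, so that rate may not hold.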

How the results depend on the processing

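Among the 9 promoters, the side of the threshold changed for 2: myb was called after quantile normalization, cyclic loess, and cyclic loess with the replicate block, and meis1b with the replicate block or without mutant replicate 1, so the count of called promoters went from 0 to 1 in each of these. Signs turned at lmo2 (0.011 with library medians equal, -0.056 to 0.036 without single replicates, positive without mutant replicate 3), ikzf1 (-0.0054 with technical repeat 1 only) and meis1b (-0.033 after quantile normalization, -0.026 after cyclic loess with or without the block), and, among the companion windows named by the rule, at tcf3a (-0.021 after quantile normalization, -0.019 after cyclic loess with or without the block). Over whole companion lists, the sign after cyclic loess differed from that as deposited at 4 of 23 paralog windows, 6 of 24 partner factor windows, 6 of 31 windows of signals and receptors and 1 of 17 windows of targets and markers. The cause was not tested. The added settings on technical repeats and single libraries were chosen after the data were seen.

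Over all windows, 1790 calls became 2969 with 12 libraries apart, 3621 with the replicate block, 3201 with cyclic loess and the block, 758 with technical repeat 2 only, and 1056 to 2223 without single replicates (1116 without mutant replicate 3, 1056, 1181 and 1134 without wildtype replicates 1, 2 and 3). Higher and lower calls numbered 1238 and 552, 1013 and 706 after cyclic loess, 973 and 772 after quantile normalization, and 1582 and 378 with medians equal. Called paralog windows went from 3 to 6 with libraries apart, 7 with the block, 6 with cyclic loess and the block, 0 with technical repeat 2 only, and 0 to 5 without single replicates. Partner factors went from 6 to 2 (quantile), 3 (cyclic loess), 2 and 0 (technical repeat 1 or 2 only), and 1 to 7 without single replicates. Signals and receptors went from 3 to 5 (quantile, cyclic loess) and 9 (cyclic loess with the block), and 2 to 3 without single replicates. Targets and markers went from 1 to 5 (libraries apart, block), 0 (no filter, medians equal, plain eBayes, technical repeat 2 only), 2 (mean log2 of at least 6), 3 (quantile, cyclic loess with or without the block), and 0 to 2 without single replicates. The unknown depth limits what can be said of weak windows such as gata2b.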
